A study of Mus musculus with 30 samples.

Results

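The comparison described here is the loss of PPARα in fasted livers that already lacked CREB3L3. It sets 4 fasted PPARα/CREB3L3-/- livers against 4 fasted CREB3L3-/- livers, 8 of the 30 livers of the series. Both groups were chosen by their labelled genotype and regimen, and every probe set with exactly 1 gene symbol was followed, which is 21218 of the 35556 probe sets on the array and 18820 genes. A gene with several probe sets is counted by the one with the highest mean.

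The mice were males of about 8 weeks on a C57BL/6 background, killed in the morning after a fast of 16 hours, with 1 Mouse Gene 1.1 ST array (Affymetrix) per liver. The PPARα and CREB3L3 knockout lines had each been backcrossed to C57BL/6 mice and were then interbred. Both groups lacked CREB3L3 in every tissue, so the labelled difference between them is PPARα, which was also deleted in the whole body. DNA linked to its allele may differ as well, and whether the mice were littermates is not stated. Fasted wild-type (WT, n = 4) and fasted PPARα-/- livers (n = 3) show the same loss with CREB3L3 present. PPARα/CREB3L3-/- and CREB3L3-/- livers from mice kept on ketogenic food for 4 days without a fast (n = 4 each) show it under a diet rich in fat. Values are log2 intensities, on which a difference of 1 is a 2-fold change, and a gene is called higher or lower at P under 0.001 with a fold change above 1.2. Most genes named from lists below were chosen by low P. A lack of overlap between their groups is therefore a description and no separate result, and its share over all genes is not given here.

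PPARα is a nuclear receptor that binds fatty acids, pairs with RXR and switches on genes for the uptake, binding and oxidation of fatty acids, above all in the fasting liver. Fatty acids released from adipose tissue are oxidized there in mitochondria and peroxisomes, and part of the product leaves the liver as ketone bodies. CREB3L3 is a transcription factor of the endoplasmic reticulum membrane that is cut free during fasting and acts on genes of lipoprotein metabolism and on Fgf21, a hormone that PPARα also induces. The comparison therefore asks what PPARα does in a fasted liver in which this partner is missing.

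The arrays of both groups were close in scale, with medians of 4.33 to 4.38. Within both groups they correlated at 0.986 to 0.990, and no array of either group correlated above 0.984 with an array of the other. Creb3l3 itself read 5.36, 4.53, 4.83 and 4.87 in the PPARα/CREB3L3-/- livers and 5.0, 4.81, 5.14 and 4.67 in the CREB3L3-/- livers. The groups overlapped, with a difference of -0.01 ± 0.14 (standard error of the limma model, as after every ± here). Ppara read 8.31, 7.25, 7.97 and 9.09 without PPARα and 9.51, 10.03, 9.66 and 9.92 with it. All 4 knockout livers lay below all 4 controls (difference -1.63 ± 0.27, adjusted p = 0.00016). The probe set is of a design that reads the whole transcript, whereas the allele disrupts a part of the gene, so the remaining signal is no check of the genotype. The PPARα/CREB3L3-/- liver numbered 4 lay nearest to the controls for 423 of 795 genes called higher (53.2%) and for 334 of 633 genes called lower (52.8%). Without it, 901 probe sets were called higher and 693 lower, against 846 and 674 with all 8 livers.

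Loss of PPARα raised 795 genes and lowered 633 of 18820, which is 4.22% and 3.36% of the genes tested. Beyond a 2-fold change, 238 probe sets were higher and 176 lower. The median difference over all genes was -0.02, against which the medians of gene lists below can be read. In whole liver, fewer cells of a type and less RNA per cell cannot be told apart.

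Among the largest decreases were genes of fatty acid handling next to genes with no established place in it. Gm15441, a long non-coding RNA, read 3.11, 3.32, 3.46 and 4.01 without PPARα and 10.93, 10.90, 10.97 and 10.38 with it. The groups were far apart, and the difference of -7.32 ± 0.45 was the largest of all (adjusted p = 1.8e-11). Without PPARα it lay below the lowest median of any array (4.22), so the size of the fall is less certain. Vnn1, the pantetheinase vanin-1 that splits pantetheine in the turnover of coenzyme A, read 5.77, 4.98, 5.46 and 7.10 against 10.79, 11.11, 10.63 and 10.89. It fell 32.6-fold, and the highest knockout liver was again number 4. Serinc2, of a family of membrane proteins named for serine incorporation into lipids, read 5.21, 4.84, 4.71 and 5.05 against 9.68, 9.86, 9.67 and 9.63. The spread within each group was small beside the difference of -4.76 ± 0.17 (adjusted p = 6.7e-16).

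Cyp4a14, a fatty acid omega-hydroxylase of the endoplasmic reticulum, read 10.09, 8.26, 8.63 and 10.25 without PPARα and 13.20, 13.01, 13.00 and 13.01 with it (difference -3.75 ± 0.47). That was a 13.4-fold fall. Mfsd2a, a transporter of lysophospholipids that carry long polyunsaturated fatty acids, read 4.15, 3.68, 3.57 and 4.06 against 7.58, 7.28, 6.78 and 8.17. Lipg, the endothelial lipase that acts on phospholipids of lipoproteins, read 4.24, 4.26, 4.50 and 5.12 against 6.67, 8.56, 7.14 and 7.87. The differences were -3.59 ± 0.43 for Mfsd2a and -3.03 ± 0.44 for Lipg. Mfsd2a without PPARα also lay below the lowest array median. The largest changes were chosen among genes whose groups do not overlap, so their lack of overlap is not a result. Cyp4a31, another omega-hydroxylase, differed by -3.00.

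The spread within groups varied among the other large decreases. Prrg4 read 3.74, 4.46, 4.39 and 3.46 without PPARα and 7.09, 6.94, 7.40 and 7.03 with it. Chrna2, a subunit of nicotinic acetylcholine receptors, read 3.82, 4.06, 3.86 and 3.87 without PPARα and 7.59, 7.73, 7.53 and 7.47 with it, a difference of -3.68 ± 0.21. Without PPARα it lay below the lowest median of any array (4.22). Tmtc2, Prrg4, Krt23 and Rab30 differed by -3.12, -3.10, -2.94 and -2.86, with adjusted p values between 3.2e-10 and 2.2e-07. Rab30 is a small GTPase of the Golgi. Krt23 is a keratin, and without PPARα (3.23 to 3.60) it also lay below the lowest array median.

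**Figure D1:**
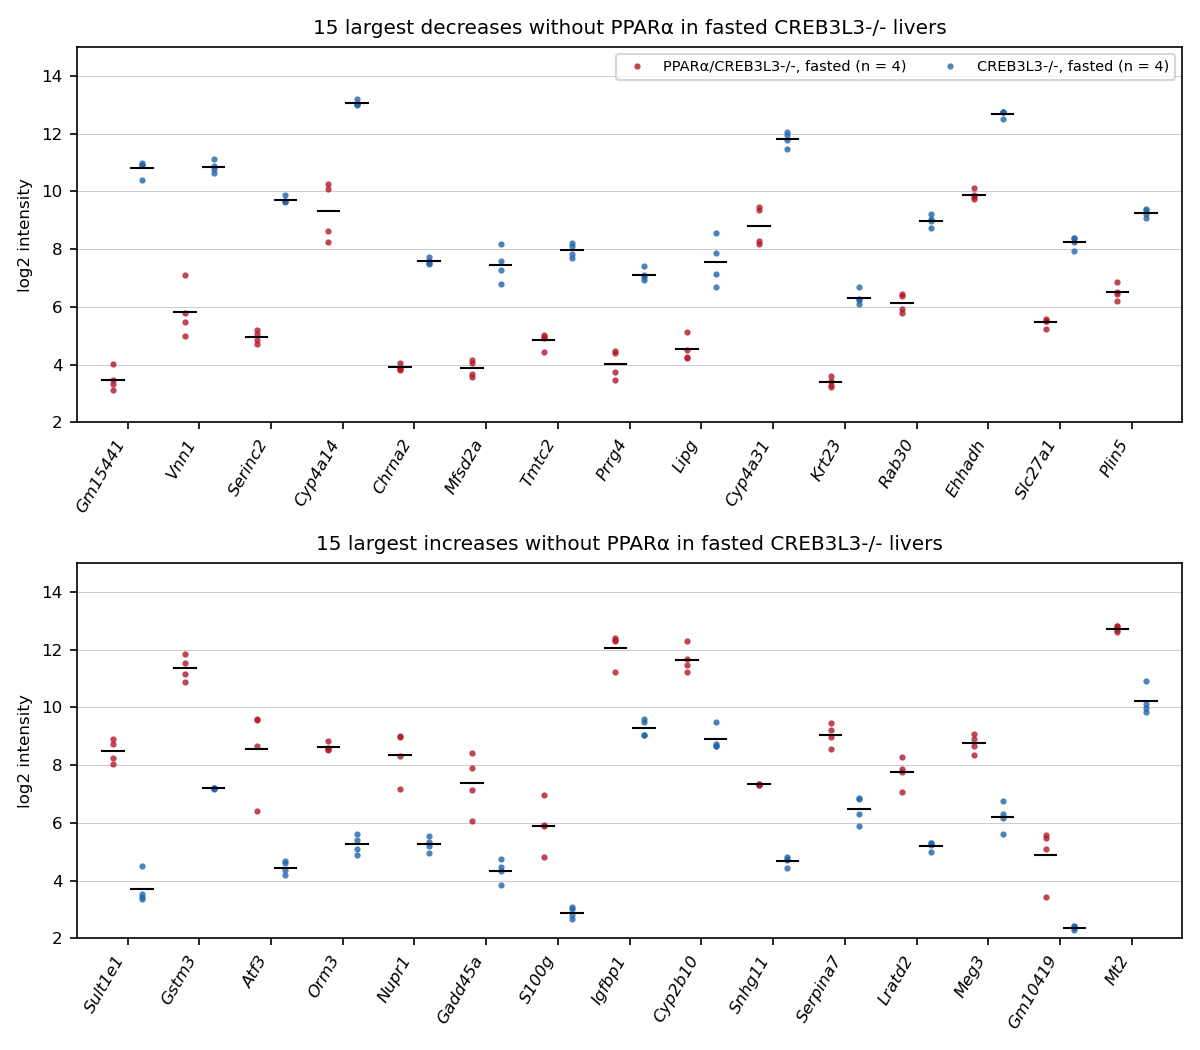
Log2 intensity (y axis) of the 15 genes with the largest decreases (top) and the 15 with the largest increases (bottom) among called genes whose groups do not overlap; each point is 1 liver, red for PPARα/CREB3L3-/- and blue for CREB3L3-/-, n = 4 each, and black lines are group means. The decreases run from -7.32 for Gm15441 to -2.75 for Plin5, and the increases from 4.77 for Sult1e1 to 2.52 for Mt2, with the knockout livers spread over more than 3 units for Atf3.

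Mitochondrial fatty acid oxidation was lower along most of its length. Of 22 genes measured, 18 fell and none rose, with a median difference of -1.0. The carnitine shuttle fell at its transporter and inner membrane enzyme: Slc25a20, which exchanges acylcarnitine for carnitine, read 9.12, 9.13, 9.05 and 9.35 against 10.79, 10.91, 10.82 and 10.73, and Cpt2 differed by -1.49 ± 0.09. Cpt1a, the outer membrane transferase at which entry of fatty acids is controlled, read 10.59, 10.55, 10.62 and 10.73 against 11.04, 11.11, 11.05 and 11.15. Its groups did not overlap either, but its difference of -0.46 ± 0.08 (adjusted p = 0.00033) was smaller than that of Cpt2.

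The enzymes of the spiral itself fell unequally. Hadha and Hadhb, the subunits of the trifunctional protein for long chains, differed by -1.16 ± 0.08 and -1.49 ± 0.09. Decr1 and Eci2, which handle double bonds, differed by -1.53 ± 0.13 and -1.80 ± 0.10. Acadm, the medium-chain dehydrogenase, read 11.66, 11.39, 11.53 and 11.76 against 11.98, 12.04, 12.00 and 12.06, a difference of -0.43 ± 0.10 (adjusted p = 0.0037). It lost its call when PPARα/CREB3L3-/- replicate 2 was left out (-0.37). Etfa, a subunit of the flavoprotein that passes electrons on, differed by -0.38 ± 0.08. The members not called were Hadh, Acad9, Acad10 and Echs1.

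In peroxisomes, 12 of 20 genes of fatty acid oxidation fell and none rose (median -0.96). Ehhadh, the bifunctional enzyme of straight-chain oxidation, read 9.79, 9.88, 9.74 and 10.11 against 12.75, 12.76, 12.74 and 12.51. It fell 7.01-fold (difference -2.81 ± 0.15, adjusted p = 1.4e-12). Decr2 differed by -2.08 ± 0.11, Acaa1b, a thiolase, by -1.61 ± 0.22, Ech1 by -1.30 ± 0.13, Hsd17b4, the other bifunctional enzyme, by -1.20 ± 0.08, and Abcd3, a carrier of acyl-CoA into the peroxisome, by -1.13 ± 0.08. Pex11a, which drives the division of peroxisomes, read 9.51, 9.60, 9.35 and 9.23 against 10.94, 11.13, 10.97 and 10.85. It was 1 of 4 called of 13 genes of peroxisome biogenesis, all 4 lower, and its difference of -1.55 ± 0.18 was the only one of the 4 beyond 2-fold, the others being Pex5 (-0.48), Pex19 (-0.47) and Pex14 (-0.39). Of 10 genes of omega-oxidation 3 fell, namely both Cyp4a genes above and Aldh3a2 (-1.11).

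Fatty acid uptake, activation and binding were lower in part. Of 13 genes of uptake and binding 6 fell, and of 24 acyl-CoA synthetases and thioesterases 7 fell, with no rise in either list. Fabp1, the abundant binding protein of the liver cytosol, read 10.34, 9.55, 10.69 and 10.90 against 12.68, 12.81, 12.69 and 12.56. It fell 4.96-fold, with a wider spread without PPARα. Slc27a1, a fatty acid transport protein with synthetase activity, read 5.52, 5.57, 5.23 and 5.52 against 7.95, 8.38, 8.23 and 8.39 (difference -2.78 ± 0.15). Acot1, a cytosolic thioesterase, differed by -2.44 ± 0.27, and Acsl5, a long-chain synthetase, by -0.88 ± 0.09. Pank1, a pantothenate kinase at the start of coenzyme A synthesis, differed by -1.0 ± 0.15.

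Lipid droplet genes moved both ways, with 6 of 22 lower and 3 higher. Plin5, a droplet coat protein that links droplets to mitochondria, read 6.85, 6.46, 6.52 and 6.21 against 9.07, 9.38, 9.37 and 9.21 (difference -2.75 ± 0.29). The lipases Mgll and Lipe differed by -2.03 ± 0.20 and -1.23 ± 0.12, Hsd17b11 by -1.89 ± 0.10, and G0s2, an inhibitor of triglyceride lipase, by -1.92 ± 0.37. Dgat2, which makes triglycerides, was the lowest in P of the 3 that rose: 12.13, 12.16, 12.09 and 11.92 against 11.40, 11.38, 11.38 and 11.48, a difference of 0.67 ± 0.11. Pparg, the related receptor that promotes fat storage, read 7.95, 8.14, 8.25 and 8.09 against 6.11, 6.70, 6.19 and 6.81. All knockout livers lay above all controls, and it rose 3.14-fold (difference 1.65 ± 0.19, adjusted p = 1.6e-06).

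Of 22 genes of apolipoproteins and lipoprotein handling, 3 fell and 1 rose. Apoa4, an apolipoprotein that fasting induces, was the one that rose, with 10.99, 10.84, 10.81 and 10.85 against 9.07, 8.99, 8.86 and 8.71 (difference 1.97 ± 0.20). The falls were in Lipg, Angptl4, an inhibitor of lipoprotein lipase (-0.84 ± 0.10), and Mttp, which loads lipid onto apolipoprotein B (-0.47 ± 0.08). Of 14 genes of fatty acid synthesis 2 fell (median -0.17), and of 9 genes of polyunsaturated fatty acid synthesis 1 fell (median -0.06). None rose in either list. Among elongases of fatty acids, Elovl6 differed by -1.23 ± 0.21 and Elovl5 by -0.97 ± 0.15.

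Most genes of the steps after beta-oxidation were not called. Of 16 genes of the TCA cycle 4 fell, 1 rose and 11 were not called, with Dlst, a subunit of 2-oxoglutarate dehydrogenase, at -0.68 ± 0.09 and Suclg1 at -0.60 ± 0.09. In respiratory complex I, 7 of 33 subunits fell, and in complexes III to V 7 of 32, none rising in either, so that 26 and 25 were not called. Ndufa6 read 9.14, 9.23, 9.17 and 9.35 against 9.64, 9.68, 9.76 and 9.74, which is a gap without overlap but a difference of only -0.48 ± 0.08. Ndufb10 differed by -0.75 ± 0.13 and Atp5g3, a subunit of the ATP synthase ring, by -0.40 ± 0.07. The count for complexes III to V changed to 3 without PPARα/CREB3L3-/- replicate 3 or without CREB3L3-/- replicate 3, to 4 without PPARα/CREB3L3-/- replicate 2 or CREB3L3-/- replicate 1, and to 3 when only the 8 arrays were fitted. Of 7 genes of ketone body metabolism 2 rose and 2 fell (median 0.21). Acat1, the thiolase that starts ketone body synthesis, differed by -0.74 ± 0.08, and Slc16a1, a carrier of ketone bodies and lactate, by -1.21 ± 0.13, whereas Slc16a6, a carrier of ketone bodies, differed by 1.35 ± 0.26.

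In glucose metabolism 3 of 19 genes fell. G6pc, the catalytic subunit that releases glucose, read 9.16, 9.85, 9.76 and 10.13 against 11.35, 11.29, 11.01 and 11.56 (difference -1.58 ± 0.39, adjusted p = 0.011), and Gpd1 differed by -0.98 ± 0.17. Pdk4, the kinase that holds pyruvate dehydrogenase off in fasting, read 7.79, 8.74, 7.98 and 7.79 against 9.35, 9.47, 9.77 and 9.35 (difference -1.41 ± 0.38, adjusted p = 0.017). Neither overlapped between groups, but both stood close to the threshold, and Pdk4 was not called without the intensity trend or with a robust trend. G6pc lost its call without any of CREB3L3-/- replicates 1, 2 and 4 or PPARα/CREB3L3-/- replicates 1 and 3 (differences from -1.59 to -1.39), and Pdk4 without any 1 of the arrays except PPARα/CREB3L3-/- replicate 2 (from -1.45 to -1.31 where lost). Ldha, lactate dehydrogenase, differed by -0.54 ± 0.09.

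The genes that rose were of other kinds. Sult1e1, the sulfotransferase that inactivates estrogens, read 8.92, 8.03, 8.74 and 8.23 without PPARα and 4.51, 3.53, 3.42 and 3.35 with it, a 27.3-fold rise (difference 4.77 ± 0.56, adjusted p = 1.6e-06). Gstm3, a glutathione transferase, read 11.15, 11.84, 11.53 and 10.88 against 7.20, 7.19, 7.16 and 7.21 on the probe set that changed most, with 2.75 ± 0.34 on its brighter one. Genes of the glutathione transferase family resemble each other, so part of a signal may be shared between them. Mt2, a metal-binding metallothionein, read 12.83, 12.67, 12.82 and 12.60 against 10.90, 10.13, 9.98 and 9.84. The largest changes were chosen among genes without overlap between groups, so the lack of overlap here was set by that choice.

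Enzymes of conjugation and the NRF2 response made up a group of increases. Of 26 sulfo-, glutathione and glucuronyl transferases 10 rose and 1, Gstt2 (-1.32 ± 0.13), fell. Of 19 genes of the NRF2 antioxidant response 10 rose and none fell (median 0.75). Nqo1, a quinone reductase, read 6.89, 7.40, 7.03 and 6.83 against 5.40, 5.54, 5.41 and 5.31, with tight controls and a 3.08-fold rise. Srxn1, which repairs peroxiredoxins, read 9.60, 10.34, 10.02 and 8.98 against 7.97, 8.18, 8.07 and 8.06. Hmox1, heme oxygenase, read 9.95, 10.96, 10.28 and 8.63 against 7.69, 7.68, 8.31 and 7.80. All 3 were apart between groups, but they were named for low P, so this is no separate result. Liver number 4 was the lowest knockout liver for each. Abcc4, an export pump, differed by 1.51 ± 0.24 and Ugdh, which makes UDP-glucuronate, by 1.03 ± 0.19.

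Of 30 cytochromes P450 of families 1 to 3, 4 rose and none fell. Cyp2b10, the standard target of the xenobiotic receptor CAR, read 11.45, 12.30, 11.66 and 11.21 against 8.67, 8.67, 8.74 and 9.50 (difference 2.76 ± 0.62, adjusted p = 0.0048). Cyp2a5 reached 12.41, 12.41, 12.39 and 12.44 from 10.49, 10.66, 10.57 and 11.41, and Cyp2c55 differed by 2.31 ± 0.39. Slco1a4, an uptake carrier for organic anions, differed by 2.25 ± 0.38.

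The integrated stress response, the program that ATF4 drives when protein synthesis is throttled, had 10 of 23 genes higher and none lower (median 0.71). Atf3, a transcription factor downstream of ATF4, read 8.65, 9.59, 9.57 and 6.41 without PPARα and 4.68, 4.18, 4.60 and 4.35 with it. The lowest knockout liver, number 4, lay above all controls, as the choice of the largest changes required. The rise was 17.2-fold (difference 4.10 ± 0.57, adjusted p = 2e-05). Nupr1, a small stress-induced chromatin protein, read 8.31, 9.0, 8.96 and 7.16 against 4.95, 5.21, 5.55 and 5.33. Trib3, a pseudokinase that ATF4 induces, read 7.82, 8.77, 8.49 and 6.43 against 5.34, 5.88, 5.69 and 5.95. Atf4 itself differed by 0.98 ± 0.18. Liver number 4 was the lowest knockout liver for each of these genes. The count of 10 was 11 without that liver, 6 without PPARα/CREB3L3-/- replicate 2, and 3 when only the 8 arrays were fitted.

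Chaperones of the unfolded protein response stayed apart from this program. None of 19 was called in either direction (median 0.07). With CREB3L3 present, 9 of the 19 were higher in PPARα-/- than in WT livers (median 0.41), but the interaction was called for none of them, so a difference between both settings was not shown.

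Part of the immediate early genes and p53 targets rose, next to single genes of other kinds. Gadd45a, a growth-arrest gene, read 7.12, 8.43, 7.90 and 6.05 against 4.32, 4.48, 3.84 and 4.74 (difference 3.03 ± 0.39). Of 19 immediate early genes 6 rose and none fell, with Nr4a1 at 6.70, 7.31, 8.15 and 6.68 against 4.73, 4.90, 4.70 and 4.73, Egr1 at 2.48 ± 0.45 and Jun at 1.08 ± 0.17. Of 15 p53 targets 2 rose, Trp53inp1 by 1.78 ± 0.21 and Btg2 by 1.98. Igfbp1, a secreted binder of insulin-like growth factors, read 12.30, 12.40, 12.32 and 11.21 against 9.48, 9.03, 9.04 and 9.61 and rose 6.81-fold. The remaining large increases were S100g (3.01 ± 0.50), which binds calcium, Snhg11 (2.66 ± 0.23) and Meg3 (2.54 ± 0.28), both long non-coding RNAs, Serpina7 (2.58 ± 0.59), a carrier of thyroxine, Lratd2 (2.54 ± 0.21) and Gm10419 (2.53 ± 0.28). Serpina7 lost its call without CREB3L3-/- replicate 1 (2.39). In the CREB3L3-/- livers S100g (2.68 to 3.07) and Gm10419 (2.28 to 2.42) lay below the lowest array median.

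**Figure D2:**
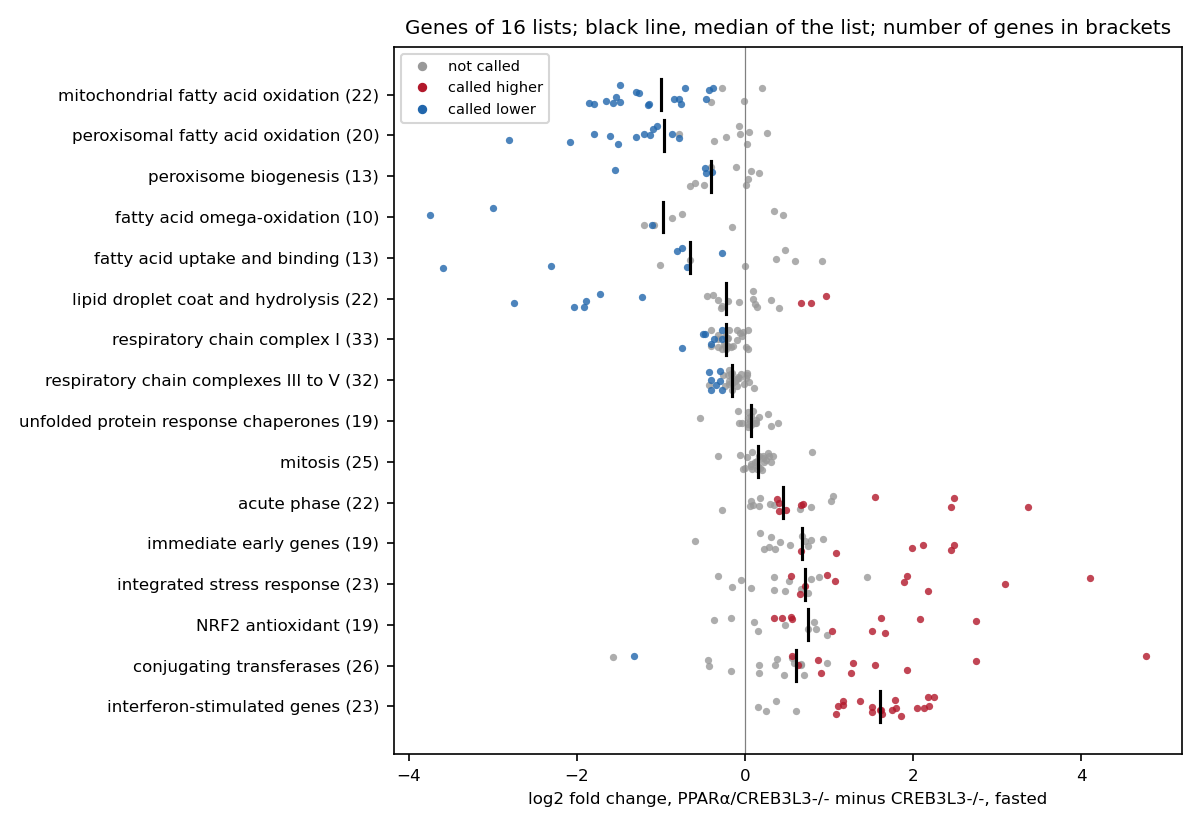
Log2 fold change (x axis) of each gene of 16 lists between fasted PPARα/CREB3L3-/- and CREB3L3-/- livers, n = 4 each; red points are genes called higher, blue points genes called lower, grey points genes not called, the black line is the median of the list, and the numbers in brackets count its genes. The lists of fatty acid oxidation lie to the left (medians -1.0 and -0.96), and that of interferon-stimulated genes to the right (median 1.60).

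Interferon-stimulated genes, which cells switch on in answer to type I interferon, were the list with the largest share of increases in the plot of the 16 lists, with 19 of 23 higher and none lower (median 1.60). Usp18, which limits interferon signalling, read 10.31, 9.56, 9.85 and 10.16 without PPARα and 7.96, 7.76, 7.25 and 8.14 with it (difference 2.19 ± 0.30, adjusted p = 1.6e-05). Ifit3 read 9.16, 8.52, 8.61 and 9.71 against 6.82, 6.70, 6.10 and 7.39. Gbp3, a guanylate-binding protein, read 8.29, 7.69, 8.19 and 8.70 against 6.16, 5.82, 5.96 and 6.77. All 3 were apart between groups, but they too were named for low P. Knockout liver number 4, the lowest for stress genes, was the highest or second highest here. Xaf1 differed by 2.18 ± 0.32 and Isg15, a ubiquitin-like modifier, by 1.62 ± 0.35. The members not called were Irf9, Ifi27, Stat2 and Bst2. With any 1 array left out, 16 to 19 of the 23 were called.

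Acute phase proteins, which hepatocytes secrete in inflammation, had 10 of 22 genes higher and none lower (median 0.45). Orm3, an orosomucoid, read 8.54, 8.82, 8.60 and 8.52 against 5.40, 4.88, 5.63 and 5.09. Lcn2, which binds bacterial siderophores, read 10.98, 11.26, 11.41 and 11.18 against 9.60, 8.43, 8.94 and 8.06. Both rose clearly (3.37 ± 0.43 and 2.45 ± 0.42). Crp and Cp differed by 0.69 ± 0.14 and 0.40 ± 0.05.

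Markers of other liver cell types were examined beside these lists. None of 13 macrophage markers was called, but their summed level was 11.67 to 12.06 without PPARα and 11.23 to 11.53 with it, without overlap, and Cd68 differed by 0.86 (adjusted p = 0.029). None of 8 neutrophil markers was called, with summed levels of 6.55 to 7.01 and 6.50 to 6.78, and 6 of the 8 lay on average below the lowest array median. None of 11 T and NK cell markers was called (6.93 to 7.11 and 6.84 to 7.14, all 11 below that median), nor any of 10 hepatocyte markers, summed at 16.28 to 16.33 without PPARα and 16.13 to 16.24 with it. The summed level of 7 cholangiocyte markers was lower without PPARα, 7.25 to 7.44 against 7.46 to 8.02, with none called. The part of these shifts in the results above was not tested. Of 18 hepatocyte identity factors 5 fell, Foxa1 among them with 7.51, 7.59, 7.55 and 7.86 against 9.29, 8.59, 8.96 and 8.23.

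The same loss with CREB3L3 present gave a similar picture. Between fasted PPARα-/- and WT livers 586 genes were higher (3.11%) and 486 lower (2.58%), with a median difference of -0.01 over all genes. No array is shared with the comparison above, and across the 18820 genes, which are not independent, the differences correlated at r = 0.658. Of the genes lower without CREB3L3, 292 were also lower with it, which is 46.1% of the first list and 60.1% of the second. Of the genes higher, 255 were shared (32.1% and 43.5%), and 2 genes were called opposite ways. Mitochondrial fatty acid oxidation had 19 of 22 genes lower with CREB3L3 (median -0.96) and peroxisomal oxidation 12 of 20 (median -0.93), close to the counts without it. Vnn1 and Serinc2 differed by -5.95 and -4.96 there, Ehhadh by -2.62 and Plin5 by -2.77.

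The lists of increases gave lower counts with CREB3L3 present. There, 2 of 23 interferon-stimulated genes were higher (median 0.64), 1 of 23 genes of the integrated stress response (median 0.35) and 5 of 19 of the NRF2 response (median 0.34). The interaction, which is the effect of PPARα loss without CREB3L3 minus its effect with CREB3L3, was called for no gene of these 3 lists at P under 0.001. Atf3, for example, had an interaction of 2.17 ± 0.84 (adjusted p = 0.36) and Ifit3 of 1.35 ± 0.46 (adjusted p = 0.26). The counts therefore do not show that the effect on any 1 of these genes depended on CREB3L3.

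The interaction was called for 157 genes, 0.834% of those tested, and on 192 probe sets, of which 44 probe sets were below 0.05 after adjustment when no fold change was asked. Of the 157, 64 were called only without CREB3L3, 50 only with it, 11 the same way in both, 2 opposite ways and 30 in neither.

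**Figure D3:**
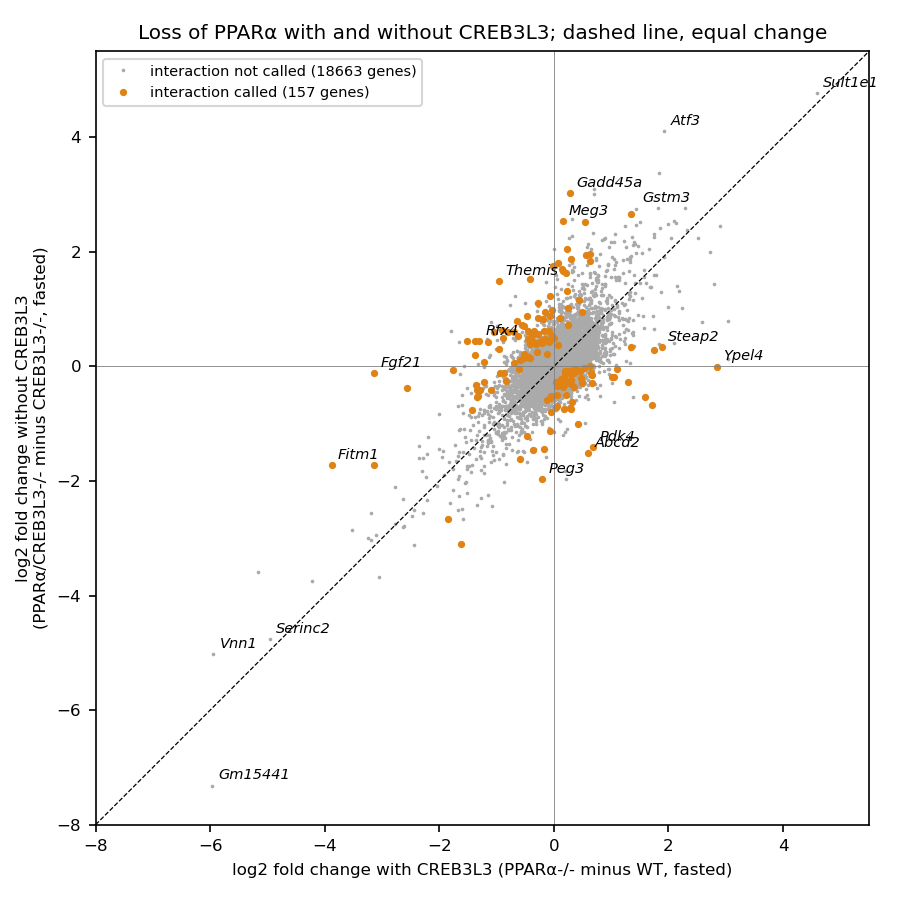
Log2 fold change on loss of PPARα with CREB3L3 (x axis, 3 PPARα-/- against 4 WT livers) and without it (y axis, 4 PPARα/CREB3L3-/- against 4 CREB3L3-/- livers), all fasted; each point is 1 of 18820 genes, orange for the 157 genes with a called interaction, and the dashed line marks equal change. Vnn1, Serinc2 and Sult1e1 lie near the line, whereas Fgf21 (-3.13 and -0.12) and Ypel4 (2.85 and 0.00) were called only with CREB3L3.

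Fgf21, the fasting hormone, was called lower without PPARα only where CREB3L3 was present. It read 7.35, 6.96, 6.84 and 6.32 in WT livers and 3.52, 4.13 and 3.55 in PPARα-/- livers. Without CREB3L3 it was already at 3.92, 4.19, 4.10 and 4.46, and 4.41, 4.46, 3.74 and 3.57 without both. Only the WT group stood apart, and the interaction was 3.01 ± 0.66 (adjusted p = 0.056). The levels without CREB3L3 lay around the array medians (4.22 to 4.38), so a further fall there may not have been readable. Fitm1, a protein of lipid droplet formation, fell in both settings, with differences of -3.88 with CREB3L3 and -1.73 without it. Its interaction of 2.15 ± 0.51 (adjusted p = 0.084) lost its call without PPARα-/- replicate 1 or 3 (1.93 and 2.01). Hadh and Hsd17b10, dehydrogenases of mitochondrial beta-oxidation, fell more with CREB3L3, with interactions of 0.87 ± 0.21 and 0.69 ± 0.15 (adjusted p = 0.084 and 0.056). That of Hadh lost its call without PPARα-/- replicate 1 or 3 (0.79 and 0.78).

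Peg3, Meg3 and Rcan1 were called only where CREB3L3 was missing. Peg3, an imprinted zinc finger gene, read 5.82, 5.92, 5.59 and 5.49 in PPARα/CREB3L3-/- and 7.43, 7.69, 7.87 and 7.70 in CREB3L3-/- livers, but 6.97, 6.60 and 6.54 in PPARα-/- and 7.03, 7.0, 6.84 and 6.75 in WT livers. The group without both proteins was the lowest and that without CREB3L3 alone the highest (interaction -1.77 ± 0.23, adjusted p = 0.00036). Meg3, also imprinted, went the other way, with 8.67, 8.36, 9.09 and 8.89 against 6.32, 5.60, 6.18 and 6.77, and a difference of 0.16 with CREB3L3 (interaction 2.38 ± 0.41, adjusted p = 0.015). Rcan1, an inhibitor of calcineurin, read 9.45, 9.37, 9.38 and 8.70 in PPARα/CREB3L3-/- livers, above every liver of the other fasted groups, which lay between 7.06 and 7.98 (interaction 1.73 ± 0.25). Also called only where CREB3L3 was missing were Gadd45a (2.75 ± 0.57) and Gm10419 (1.98 ± 0.41), with positive interactions. Maged1 (-0.75 ± 0.11) and Cct6a (-0.45 ± 0.09) were so too, with negative ones. For Gm10419, PPARα/CREB3L3-/- replicate 4 (3.43) lay below PPARα-/- replicate 3 (3.76). Snhg11 and Prrg4 were called the same way in both settings, with larger estimates without CREB3L3. Snhg11 differed by 2.66 against 1.34 (interaction 1.32 ± 0.34, adjusted p = 0.11) and Prrg4 by -3.10 against -1.63 (interaction -1.47 ± 0.38, adjusted p = 0.11).

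Themis, a gene best known from T cells, and Antxr2, an anthrax toxin receptor, were the 2 genes called opposite ways. Themis read 4.75, 4.08, 4.73 and 5.45 in PPARα/CREB3L3-/- and 3.20, 3.39, 3.14 and 3.32 in CREB3L3-/- livers, and 3.22, 3.67 and 3.36 in PPARα-/- and 4.35, 4.65, 4.06 and 4.42 in WT livers. Loss of either protein alone gave the low level, with an interaction of 2.44 ± 0.31 (adjusted p = 0.00036). Rfx4, a winged-helix factor, had the lowest P of the interactions (1.74 ± 0.22): it differed by -1.30 with CREB3L3 and by 0.44 ± 0.15 without it, which was not called. Abcd2, a peroxisomal carrier of very long-chain acyl-CoA, read 4.45, 4.70, 4.13 and 5.57 against 6.02, 6.63, 5.47 and 6.75 without CREB3L3 and differed by 0.60 with it. The 2 groups without CREB3L3 overlapped by 1 liver, and the interaction was -2.11 ± 0.42 (adjusted p = 0.045). Abcd2 is among the 100 measured genes nearest to Ppara, for which loss of PPARα and DNA linked to its allele cannot be told apart. Pdk4 had an interaction of -2.09 ± 0.55 (adjusted p = 0.12), which lost its call when any array except WT replicates 1 and 4 and PPARα/CREB3L3-/- replicate 2 was left out (from -2.23 to -1.90 where lost). Apoa4 had one of 1.33 ± 0.29, with levels of 13.00, 12.98, 12.86 and 11.71 in WT livers and between 8.71 and 10.99 in the livers without CREB3L3.

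Genes that moved only with CREB3L3 present included Ypel4, at 7.48, 5.31 and 6.75 in PPARα-/- livers and between 3.22 and 3.98 in all 12 livers of the other fasted groups (interaction -2.85 ± 0.51). Steap2, a metalloreductase, and Cd9, a tetraspanin, rose with CREB3L3 present and were not called without it (0.34 and -0.18), with interactions of -1.55 ± 0.32 and -1.20 ± 0.23. Both already read higher in CREB3L3-/- than in WT livers. Steap2 was at 6.32 to 6.51 against 4.94 to 5.10, and Cd9 at 7.14 to 7.59 against 6.65 to 6.84.

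**Figure D4:**
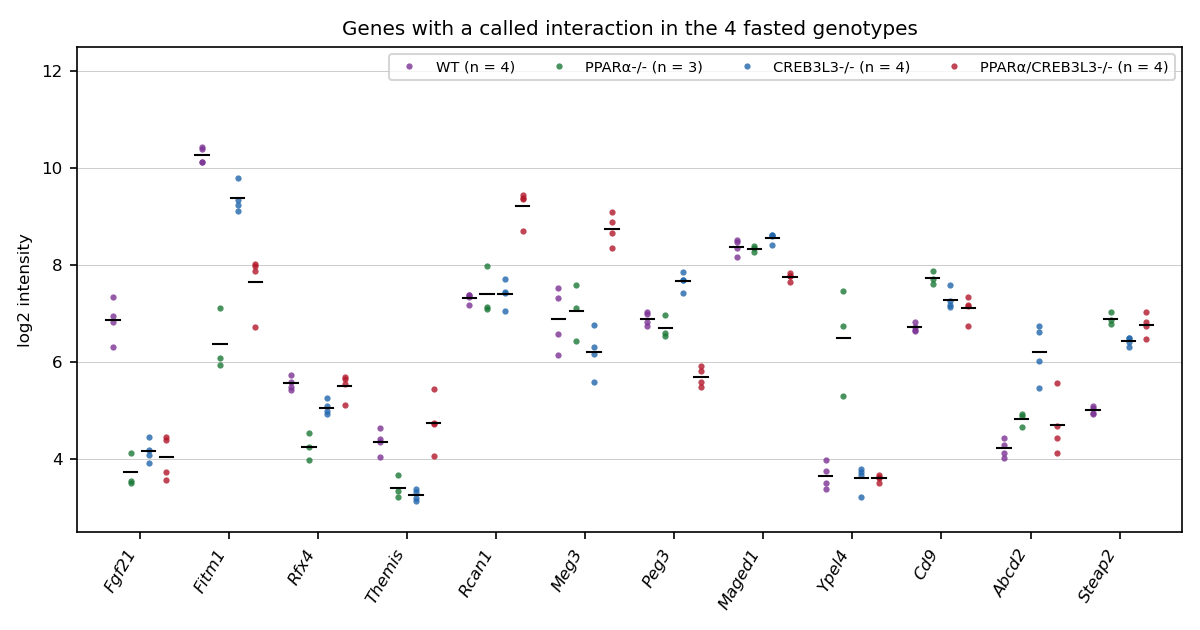
Log2 intensity (y axis) of 12 genes with a called interaction in the 4 fasted genotypes; each point is 1 liver (n = 4, and 3 for PPARα-/-), and black lines are group means. Fgf21 is high in WT livers alone, Rcan1 and Meg3 in PPARα/CREB3L3-/- livers, and Ypel4 in PPARα-/- livers.

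On the ketogenic diet the loss of PPARα without CREB3L3 looked different. There 2001 genes were higher (10.6%) and 3240 lower (17.2%), with a median of 0.05 over all genes, and the differences of both regimens, which share no array, correlated at r = 0.00834 over the 18820 genes. Of the genes lower in fasted livers 187 were lower on the diet as well (29.5% of the fasted list and 5.77% of the ketogenic one), 158 were higher in both (19.9% and 7.90%), and 294 went opposite ways. The effect differed between regimens, with the difference itself tested, for 4096 genes (21.8%). Of these, 3118 were called on the diet alone, 374 in fasted livers alone, 259 in neither, 51 the same way in both and 294 opposite ways.

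A set of targets was lower without PPARα in both regimens. Serinc2 differed by -4.80 on the diet, Vnn1 by -4.99, Cyp4a14 by -4.40, Mfsd2a by -5.21 and Ehhadh by -2.28. For none of these 5 was the difference between regimens called, which does not show that the responses were equal. That difference was -1.62 ± 0.61 for Mfsd2a (adjusted p = 0.053) and 0.53 ± 0.21 for Ehhadh (adjusted p = 0.068). Fabp1 fell further on the diet (-4.84 against -2.31; difference between regimens -2.53 ± 0.53, adjusted p = 0.00066). Other targets differed in fasted livers and little on the diet: Slc27a1 differed by -0.49 there, Plin5 by -0.56, Decr1 by -0.06 and Mgll by -0.26. For each of these 4 the difference between regimens was called (from 1.48 to 2.29). It was also called for Gm15441, which differed by -2.63 on the diet (difference between regimens 4.69 ± 0.64). The same held for Chrna2 (-0.92 on the diet), Tmtc2 (-1.08) and Krt23 (-0.69). It was not called for Prrg4, Lipg, Cyp4a31 and Rab30. The levels with PPARα had changed too: Slc27a1 read 6.41, 6.62, 6.27 and 5.97 in ketogenic CREB3L3-/- livers, against 7.95 to 8.39 in fasted ones. Plin5 read 8.89, 6.98, 6.60 and 8.39 in ketogenic CREB3L3-/- livers, overlapping the 7.15, 7.22, 6.81 and 7.45 without PPARα. In all, 6 of 22 genes of mitochondrial oxidation were lower and 6 higher on the diet, and the difference between regimens was called for 19 of the 22.

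Other lists turned round. Complex I subunits were higher on the diet in 26 of 33 cases and complexes III to V in 24 of 32, against 7 lower of each in fasted livers. Ndufa6 read 9.71, 9.67, 9.98 and 10.02 without PPARα and 9.10, 8.82, 8.74 and 8.90 with it on the diet, the reverse of its fasted order (difference between regimens 1.44 ± 0.11, adjusted p = 2.3e-10). Cox7a2l, an assembly factor of the respiratory chain, showed the same reversal (1.46 ± 0.10). Interferon-stimulated genes were lower in 14 of 23 cases on the diet and higher in none, and the difference between regimens was called for 22 of the 23. Peg3, lower without PPARα after the fast, was higher on the diet (1.26), a difference between regimens of 3.23 ± 0.22.

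The largest contrast between regimens was in mitosis. All 25 genes of the list were lower without PPARα on the diet (median -4.44), and none was called in fasted livers (median 0.15). Prc1, which bundles spindle microtubules, read 7.17, 8.18, 7.94 and 8.00 in ketogenic CREB3L3-/- livers and between 2.41 and 2.99 in all 12 livers of the other 3 groups, so in fasted livers it was near the lower end of the scale with and without PPARα. The kinesins Kif4 and Kif2c, the centromere protein Cenpe, the kinase Ttk, Depdc1a and the DNA repair factor Fancd2 had differences between regimens from -5.26 to -3.43, and Cdh17, a cadherin of intestine and bile duct, of -5.83 ± 0.32. Among the opposite differences, Igf2bp3, an RNA-binding protein of fetal tissue, read 8.08, 8.01, 8.22 and 8.61 in ketogenic PPARα/CREB3L3-/- livers and between 2.96 and 4.37 in the other 12, and Aspg (3.13 ± 0.21), Gpt (2.45 ± 0.17), Erbb3 (2.03 ± 0.15) and Coq8a (3.18 ± 0.24) followed. Markers of other cells moved with the diet comparison: 11 of 13 macrophage, 10 of 12 stellate and 8 of 10 endothelial markers were lower without PPARα, and their part in these differences was not tested.

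**Figure D5:**
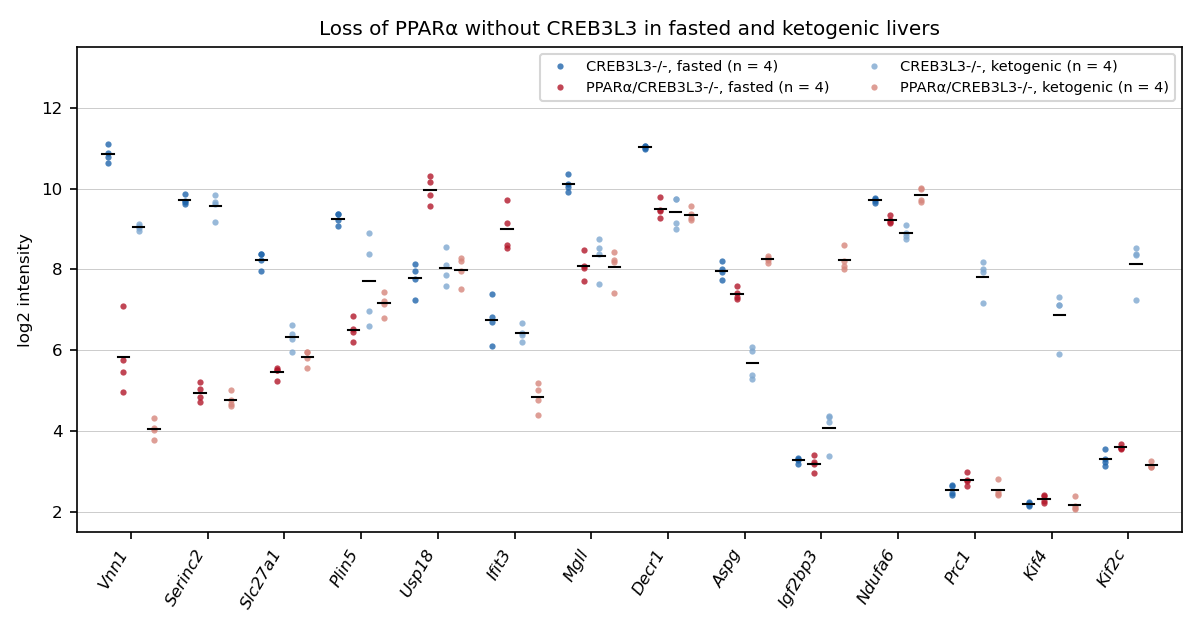
Log2 intensity (y axis) of 14 genes in CREB3L3-/- (blue) and PPARα/CREB3L3-/- livers (red), fasted (dark) and on the ketogenic diet (pale); each point is 1 liver, n = 4 per group, and black lines are group means. Vnn1 and Serinc2 are lower without PPARα in both regimens, Mgll and Decr1 only after the fast, and Prc1, Kif4 and Kif2c are high in ketogenic CREB3L3-/- livers alone.

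PPARα with RXR binds a repeat of the bases AGGTCA with 1 base between the copies, and promoters were searched for it on both strands. RefSeq windows from 250 bases before to 50 bases after the start (GRCm38.p6) were at hand for 14749 of the 18820 genes, 18155 windows in all. A repeat with at most 2 mismatches, overlaps allowed, stood in 3.53% of windows of genes called lower, 2.64% of genes called higher and 3.37% of all. With at most 1 mismatch the shares were 0.294%, 0.240% and 0.479%. None of the 15 genes with the largest decreases had a match in a window at hand. For the 15 largest increases, matches with 2 mismatches were not looked up. A match is a string of letters and not a site shown to be bound.

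Among genes that fell, Fabp1 and Acot12, a thioesterase for acetyl-CoA (-0.53 ± 0.10), had a match with 1 mismatch, and their 250 bases before the start are shown because the first is among the strongest decreases in fatty acid binding. Capitals mark the repeat, which lies on the opposite strand in both, and both genes are on the plus strand. The windows are chr6:71199629-71199878 for Fabp1 and chr13:91741271-91741520 for Acot12.
Fabp1: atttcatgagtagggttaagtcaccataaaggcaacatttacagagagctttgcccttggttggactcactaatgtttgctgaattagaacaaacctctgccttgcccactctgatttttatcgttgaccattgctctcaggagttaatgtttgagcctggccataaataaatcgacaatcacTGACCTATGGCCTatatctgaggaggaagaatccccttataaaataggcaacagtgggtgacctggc
Acot12: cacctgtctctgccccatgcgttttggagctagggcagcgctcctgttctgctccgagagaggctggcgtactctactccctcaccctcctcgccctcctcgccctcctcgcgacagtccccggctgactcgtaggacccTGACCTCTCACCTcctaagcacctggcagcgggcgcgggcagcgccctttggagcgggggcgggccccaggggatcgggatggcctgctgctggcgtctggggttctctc

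The best matches of the genes that fell more than 2-fold, written along the strand of the repeat, are shown to compare them, with bases that match in capitals and mismatches and the middle base in lower case. They start at -67 for Fabp1, 6 for Slc25a20, -144 for Aldh9a1, -29 for Ces4a, -219 for Paqr7 and -188 for Slc39a5, counted from the start site.
Fabp1: AGGcCAtAGGTCA
Slc25a20: AGGTgAaAGGTCg
Aldh9a1: AGGcCAaAGGTCt
Ces4a: gGGTgAtAGGTCA
Paqr7: AtGTCAgAGaTCA
Slc39a5: gGGTCAaAaGTCA
The genes that rose had equal matches: Dedd (0.26) and Ube2q1 (0.38) each held one with 1 mismatch.
Dedd: AGGTgAaAGGTCA
Ube2q1: AGcTCAgAGGTCA

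The DNA around Ppara itself differs between the groups as far as the allele brought its surroundings along. Of the 20 measured genes nearest to Ppara, 10 on each side, 3 were called, all lower (15%, against 7.59% of all genes with a position). These were Atxn10 (-0.83 ± 0.09), Ttc38 (-1.05 ± 0.17) and 5031439G07Rik (-0.77 ± 0.10), and the first and the last also fell with CREB3L3 present (-0.57 and -1.42), where 3 of the 20 were called in all. Of the 50 nearest, the same 3 were called (6%), and of the 100 nearest 13 (13%), Abcd2 among them. With CREB3L3 present 13 of these 100 were called too, against 1072 of 18790 genes with a position. For these genes the loss of PPARα and the linked DNA cannot be told apart.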

How the data were processed

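RNA of whole livers was hybridized to Affymetrix Mouse Gene 1.1 ST arrays, 1 per liver. The authors normalized the arrays by the robust multiarray method, and the deposited table holds log2 intensities per probe set. The methods name probes regrouped by Entrez Gene in a remapped chip definition file, but the deposited identifiers are those of the manufacturer's transcript clusters, so which grouping lies behind the values is not known. Depth does not apply to arrays, and the number of livers limits the precision. Genes were named from the platform annotation: of 35556 probe sets 21218 had 1 symbol, 1881 several and 12457 none, and only the first kind was used to name genes.

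A linear model over 8 groups and 30 arrays was fitted with limma 3.58.1 in R 4.3.3 (trended empirical Bayes, 22 residual degrees of freedom), and the script was tested on simulated data. Probe sets were called at P under 0.001 and a fold change above 1.2, and adjusted p values are Benjamini-Hochberg over all 35556. The study's own intensity-based moderated test was rebuilt as an alternative. Figures were drawn with matplotlib 3.10.9 in Python 3.11.15. The methods call the samples biological replicates, but where labels do not tie them to separate mice the p values measure the spread between these samples.

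The members and gene lists were chosen with earlier results of these data known. Named genes were the 15 largest increases and decreases among called genes without overlap, up to 6 per list by P, the 8 lowest P per direction of the interaction and of the difference between regimens, and Ppara and Creb3l3; Fgf21, Hadh, the neighbours of Ppara, the smaller members of peroxisome biogenesis, Aldh3a2, Btg2, uncalled members of lists and genes with a motif match were named after their values were seen. Of 1025 list entries 916 were measured, 6 of them by a synonym. Alternatives changed the test, thresholds, normalization, probe set per gene, arrays fitted and replicates.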

Additional observations from a re-analysis of the deposited data

Results flagged for a closer look

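Of 200 groups of 4 livers examined, 11 had 1 liver apart from the others, and chance alone gives about 5%. Among CREB3L3-/- livers these were replicate 4 for Gm15441 (10.38, the others 10.90 to 10.97), Ehhadh (12.51, the others 12.74 to 12.76) and Cyp2b10 (9.50, the others 8.67 to 8.74), replicate 1 for Cyp4a14 (13.20, the others 13.00 to 13.01) and Sult1e1 (4.51, the others 3.35 to 3.53), and replicate 2 for Nr4a1 (4.90, the others 4.70 to 4.73). Among PPARα/CREB3L3-/- livers they were replicate 2 for Fitm1 (6.72, the others 7.88 to 8.02), Snhg11 (7.35, the others 7.32 to 7.33) and Cp (12.49, the others 12.42 to 12.43), replicate 3 for Slc27a1 (5.23, the others 5.52 to 5.57) and replicate 4 for Igfbp1 (11.21, the others 12.30 to 12.40). None of these livers reached the range of the other group.

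The interaction, which compares the effect of PPARα loss without and with CREB3L3, was called at unadjusted P under 0.001 for the following named genes. Only 44 probe sets were below 0.05 after adjustment, and several named here were not, such as Snhg11 and Prrg4 (adjusted p of the interaction 0.11 each). Positive interactions were 3.01 for Fgf21, 2.75 for Gadd45a, 2.44 for Themis, 2.38 for Meg3, 2.15 for Fitm1, 1.98 for Gm10419, 1.74 for Rfx4, 1.73 for Rcan1, 1.55 for Zfp979, 1.33 for Apoa4, 1.32 for Snhg11, 1.07 for Antxr2, 0.87 for Pcsk6 and for Hadh, 0.69 for Hsd17b10 and 0.50 for Akr1a1. Negative ones were -2.85 for Ypel4, -2.11 for Abcd2, -2.09 for Pdk4, -1.77 for Peg3, -1.55 for Steap2, -1.47 for Prrg4, -1.20 for Cd9, -1.15 for Cabcoco1, -0.75 for Maged1 and -0.45 for Cct6a.

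The effect without CREB3L3 differed between the ketogenic diet and the fast for the following. It was higher on the diet by 4.23 for Igf2bp3, 3.23 for Peg3, 3.18 for Coq8a, 3.13 for Aspg, 2.45 for Gpt, 2.03 for Erbb3, 1.46 for Cox7a2l and 1.44 for Ndufa6. The differences in the other direction were -5.83 for Cdh17, -5.53 for Prc1, -5.26 for Kif2c, -4.82 for Kif4, -4.53 for Cenpe, -4.11 for Ttk, -4.05 for Fancd2 and -3.43 for Depdc1a.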

How the results depend on the processing

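With a fold change above 2 in place of 1.2, 238 probe sets were higher (846 in the model as reported), 176 lower (674), 68 had an interaction (192) and 2453 differed between regimens (4518). At an adjusted p under 0.05 without a fold criterion, 44 had an interaction and 6846 differed between regimens. With only the 8 arrays compared, the counts were 3 for the integrated stress response (10), 16 for conjugating transferases (10) and 3 for complexes III to V (7), and with only the 15 fasted arrays 4 for the last. The share of promoters of lowered genes with the repeat was 3.53% with at most 2 mismatches, 0.294% with 1 and 0% with none. Leaving out 1 array at a time gave 634 to 901 higher and 542 to 693 lower probe sets, 133 to 241 interactions and 4112 to 4757 differences between regimens. It gave 17 to 19 genes of mitochondrial and 11 to 12 of peroxisomal oxidation, 16 to 19 interferon-stimulated genes, 8 to 9 of the NRF2 response, 6 to 11 of the integrated stress response (6 without PPARα/CREB3L3-/- replicate 2), 8 to 9 of the acute phase, 7 to 10 conjugating transferases, 5 to 8 of complex I and 3 to 8 of complexes III to V. With the replicate block 852 probe sets were higher and 650 lower, with 161 interactions and 4413 differences between regimens. The numbers do not pair the livers, since same-numbered livers did not deviate together (correlations of -0.029 to 0.07). Under the block G6pc (-1.58), Pdk4 (-1.41) and the interaction of Pdk4 (-2.12) lost their calls, and Pdk4 also did so without the intensity trend or with a robust trend. Of 99 called genes followed in the fasted comparison, 92 kept their call under every alternative that was run on single genes. So did 19 of 22 for the interaction and 16 of 16 between regimens, and none changed sign. The changed thresholds and the choice of probe set were run on counts only. Several genes named after their values were seen were not followed. Mt2 (2.52) lost its call with only the 15 fasted arrays, as did the interaction of Hadh (0.87), and Abcd2 (-1.51) and Atf4 (0.98) with only the 8. The cause was not tested for any of these changes.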
